A study of Mus musculus with 17 samples.

Results

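The constant region genes of the immunoglobulin chains were examined in RNA-seq libraries of mouse cochlear tissue. The members were the 10 rows of the expression table whose gene name was Ighm, Ighd, Ighg3, Ighg1, Ighg2b, Ighg2c, Igha, Igkc, Iglc1 or Iglc2, out of 35285 genes listed, a rule that uses no measured value, though the genes were picked with earlier results of these data known. All 10 were found once each, as genes of the annotation class for immunoglobulin constant genes. The 17 libraries came from WT mice, young adult C57BL/6J males by the study's methods, and fell into 3 groups. The 3 control mice had no noise and received saline. The 7 mice of the noise exposure (NE) group were exposed for 2 hours to noise at 100 dB SPL in the band from 8 to 16 kHz. The 7 mice of the brimonidine group received intraperitoneal brimonidine, an agonist of α2-adrenergic receptors, at 1 mg/kg before noise and, by the study's methods, daily until the day after it. Cochlear tissue was taken on the second day after noise, and by the methods each library came from a mouse of its own.

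An antibody consists of paired heavy and light chains, and its class is set by the heavy chain constant region. A B cell that has not met antigen carries IgM and IgD on its surface, made from the neighbouring Ighm and Ighd genes by splicing of a common precursor RNA. After activation, class switching joins the rearranged variable region to a downstream constant gene and deletes the DNA between, so that IgG or IgA is made in place of IgM. Plasma cells, which reside mainly in bone marrow, spleen and mucosa, transcribe these genes at very high levels and secrete the product. The inbred C57BL/6 strain carries Ighg2c where several other strains carry Ighg2a.

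In the GENCODE M21 annotation of GRCm38, the 7 heavy chain members lie in a row on the minus strand of chromosome 12 in the order of transcription. Ighm (IgM) is at chr12:113418558-113422730, Ighd (IgD) at chr12:113406604-113416324, Ighg3 (IgG3) at chr12:113356224-113361232, Ighg1 (IgG1) at chr12:113325240-113330523, Ighg2b (IgG2b) at chr12:113302965-113307933, Ighg2c (IgG2c) at chr12:113285325-113288932 and Igha (IgA) at chr12:113254830-113260236. The κ light chain gene Igkc has a single exon at chr6:70726435-70726966 on the plus strand. The λ genes Iglc1 and Iglc2 are at chr16:19061618-19062071 and chr16:19198396-19200351 on the minus strand.

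The 4 γ genes differ most visibly in the short exon that codes for the hinge, the flexible link through which the paired heavy chains are joined by disulfide bonds. The hinge exons are shown because they differ in length and sequence between the IgG subclasses, and no read was assigned by them here. They are printed 5′ to 3′ on the coding strand from the GENCODE M21 transcripts, with in-frame codons for cysteine in capitals.
Ighg1 hinge exon, chr12:113329844-113329882: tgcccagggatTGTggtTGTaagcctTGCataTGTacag
Ighg2b hinge exon, chr12:113307261-113307326: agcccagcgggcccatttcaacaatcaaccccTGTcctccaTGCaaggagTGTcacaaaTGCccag
Ighg2c hinge exon, chr12:113288263-113288325: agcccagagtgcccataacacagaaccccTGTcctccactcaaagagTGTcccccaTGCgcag
Ighg3 hinge exon, chr12:113360529-113360576: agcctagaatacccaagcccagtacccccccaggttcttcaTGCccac
The hinge exon held 4 such codons in Ighg1, 4 in Ighg2b, 3 in Ighg2c and 1 in Ighg3. Over the coding sequence of the secreted form, identity between γ genes ran from 74.4% (Ighg3 and Ighg1) to 85.9% (Ighg2b and Ighg2c), and the longest run of bases shared exactly was 78 bases, between Ighg2b and Ighg2c. No stretch of 100 coding bases was shared by any pair of members.

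IgM and IgA can form polymers with the J chain, for which the secreted heavy chain needs a short tail that the membrane form lacks. The coding bases of this tail, between the splice donor of the membrane form and the stop codon, are shown for both genes, with the cysteine codon in capitals.
Ighm secreted tail, chr12:113420870-113420928: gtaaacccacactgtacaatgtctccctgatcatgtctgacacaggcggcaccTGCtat
Igha secreted tail, chr12:113258771-113258829: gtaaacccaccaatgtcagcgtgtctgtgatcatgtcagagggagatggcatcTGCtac
The tails were 59 bases long in each gene and identical at 40 of these positions.

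The λ gene Iglc2 has a near-identical relative, Iglc3, which is no member. The window of 60 coding bases in which they differ most is shown, with the differing bases in capitals.
Iglc2, chr16:19198776-19198835: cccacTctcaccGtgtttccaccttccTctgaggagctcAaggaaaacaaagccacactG
Iglc3, chr16:19065605-19065664: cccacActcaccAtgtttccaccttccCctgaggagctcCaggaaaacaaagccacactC
Their coding sequences were 96.2% identical, with an exact shared run of 79 bases, so fragments may have been split between them and the values of Iglc2 are uncertain to that extent. Iglc2 also overlaps the joining segment gene Iglj2 on the same strand.

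Expression was deposited as FPKM, the number of fragments scaled by the exon length of the gene and by the size of the library. The values were whole multiples of what 1 fragment is worth (within 0.02 fragments) for 99.9% of the genes above 0, which gave 14457732 to 18288854 fragments per library. The members took 0.214% of all fragments in control 2, 1.28% in control 3 and 1.38% in control 1, between 1.078% and 3.10% in the NE libraries, and between 1.07% and 1.69% in the brimonidine libraries. Tissue markers showed a mixed sample. The summed FPKM of 8 neutrophil genes was 9686 in control 2 and 39345 to 64544 in the other 16 libraries. The summed FPKM of 8 cochlear epithelium and stria genes was 539 to 1339, led by Coch, a secreted protein of the inner ear, whereas 6 hair cell genes summed to 9.04 to 17.4. The labels call the cells interstitial, which none of these lists tests. A list of 6 cerebellar neuron genes summed to 214 to 540 FPKM in the controls and 9.02 to 63.8 in the exposed libraries, and all 6 were called lower in NE and in brimonidine than in control. Control 2 also stood apart for the B-lineage genes described below, and the estimates against control that are described are given with and without it where it moves them.

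Igkc, the constant region of the κ light chains, was by FPKM the highest member in each of the 17 libraries. Counted in fragments, without regard to length, Igkc exceeded Ighg2c in 13 of them. It ranked among all genes by mean FPKM as number 6 in control, number 3 in NE and number 5 in brimonidine. Its FPKM was 7506 in control 1, 1019 in control 2 and 6971 in control 3. In the NE group the lowest value was 5310, the median 10679 and the highest 17269, and in the brimonidine group these were 5422, 7722 and 9241. Control 2 was thus below every other library, while the remaining controls lay inside the range of both exposed groups.

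The λ genes were far lower than Igkc on the same per-length scale. Iglc1 measured 73.3, 18.6 and 70.5 FPKM in controls 1 to 3. Its lowest, median and highest values were 44.5, 73.9 and 142.6 in NE and 41.7, 55.8 and 78.4 in brimonidine. Iglc2 measured 32.8, 6.13 and 25.3 FPKM in the controls, against 23.1, 32.3 and 59.96 in NE and 14.1, 19.97 and 51.2 in brimonidine. For both genes control 2 was the lowest of the 17 libraries and the exposed groups overlapped.

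Ighg2c was the leading heavy chain gene, with 2459, 107 and 2401 FPKM in controls 1 to 3. Its lowest, median and highest values were 1955, 4188 and 6420 in NE and 1786, 2568 and 3154 in brimonidine. Ighg2b, the constant region of IgG2b, followed the same order, with 661, 64.0 and 1065 FPKM in the controls, 643, 1173 and 1953 in NE, and 586, 802 and 1010 in brimonidine. For both genes the lowest NE libraries lay within the brimonidine range, and 5 of 7 NE libraries exceeded every control.

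Ighg1, the constant region of IgG1, was lower, with 410, 33.5 and 468 FPKM in the controls, 298, 471 and 1212 in NE, and 268, 389 and 639 in brimonidine. Ighg3, the constant region of IgG3, was the scarcest γ gene, with 18.5, 1.10 and 14.6 FPKM in the controls, 11.7, 16.6 and 42.9 in NE, and 9.71, 15.5 and 18.9 in brimonidine. NE 1 held the highest value of both genes, and the NE libraries were more variable than the brimonidine libraries, with a coefficient of variation of 57.5% for Ighg1 and 54.6% for Ighg3, against 32.4% and 25.5%. In control, with control 2 included, it was 77.7% and 80.1%.

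Igha, the constant region of IgA, measured 1312, 336 and 621 FPKM in controls 1 to 3. Its lowest, median and highest values were 852, 1166 and 1981 in NE and 958, 1018 and 1406 in brimonidine. Apart from brimonidine 3, the brimonidine libraries lay between 958 and 1036 FPKM, and the coefficient of variation of the group was 14.4%, the lowest of the 10 members.

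Ighm and Ighd showed another order of libraries. Ighm, the constant region of IgM, measured 82.1, 138.0 and 51.1 FPKM in controls 1 to 3, against 83.0, 94.9 and 134.7 in NE and 81.9, 90.0 and 119.6 in brimonidine. Ighd, the constant region of IgD, measured 4.08, 11.6 and 1.51 FPKM in the controls, against 2.37, 3.94 and 4.30 in NE and 2.98, 5.72 and 7.79 in brimonidine. Control 2, the lowest library for the other 8 members, was the highest of all 17 for both of these genes, and control 3 was the lowest for both. Ighd was the least abundant member and rested on 46 to 335 fragments per library, whereas Ighm rested on 1551 to 4453.

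**Figure D1:**
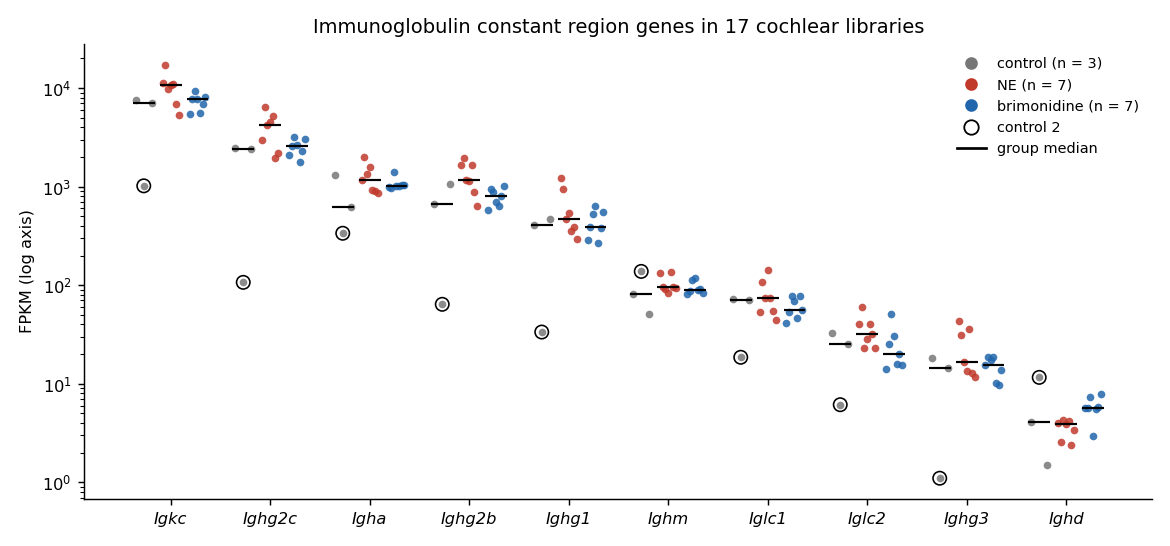
FPKM (log axis) of the 10 members in each library, grouped as control (3), NE (7) and brimonidine (7), with the group median as a line and control 2 ringed. Control 2 lies below all other libraries for 8 members, for example at 107 FPKM for Ighg2c, and above them for Ighm and Ighd.

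Ordered by the mean over all 17 libraries, the levels ran Igkc (8156 FPKM), Ighg2c (2935), Igha (1085), Ighg2b (967), Ighg1 (480), Ighm (98.0), Iglc1 (66.9), Iglc2 (28.5), Ighg3 (17.8) and Ighd (4.88). Igkc exceeded Ighg2c in all 17 libraries, Ighg2b exceeded Ighg1 in 17 and Iglc1 exceeded Iglc2 in 17. The least separated neighbours were Igha and Ighg2b, and Ighm and Iglc1, where the first exceeded the second in 14 of 17 libraries. The annotated exons of a gene include those of the membrane form, and their length differs between genes for reasons unrelated to the secreted message. All exons of Igha together are 2.43 times as long as its shortest transcript, against 1.19 times for Ighg2c. With the shortest annotated transcript as the length, an alternative added after the data were seen, the order of the 7 heavy chain means was unchanged, but Ighg2c exceeded Igha in 14 of 17 libraries and in 1 of 3 controls, against 16 and 2 on the FPKM scale. Ighg2c came closer to Igha and Ighg2b, and Ighm lay further below Ighg1, with means of 3503 for Ighg2c, 2633 for Igha, 2326 for Ighg2b, 1156 for Ighg1 and 123.7 for Ighm. Ighg3 then averaged 41.4 and Iglc2 38.1, and Ighg3 was the higher of the pair in 8 of 17 libraries.

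Expressed as a share of the summed heavy chain FPKM, the 4 γ genes made up 80.4% ± 3.63 (SD, n = 7) in NE and 76.0% ± 3.24 (SD, n = 7) in brimonidine. In controls 1 to 3 the γ share was 71.7%, 29.7% and 85.4%. Ighg2c alone made up 53.5% ± 7.36 in NE and 50.8% ± 1.93 in brimonidine, and 49.7%, 15.5% and 51.9% in controls 1 to 3. Igha made up 17.9% ± 3.45 in NE and 21.9% ± 3.01 in brimonidine, and 26.5%, 48.6% and 13.4% in the controls. Ighm made up 1.60% ± 0.570 in NE and 1.97% ± 0.321 in brimonidine, and 1.66%, 19.96% and 1.11% in the controls. Control 2 was the only library in which Igha, and not Ighg2c, was the leading heavy chain gene on this scale. Per shortest transcript, the Ighg2c share was 37.0% ± 6.70 in NE and 34.2% ± 1.69 in brimonidine, and the Igha share was 24.9% ± 4.60 and 29.96% ± 3.84.

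**Figure D2:**
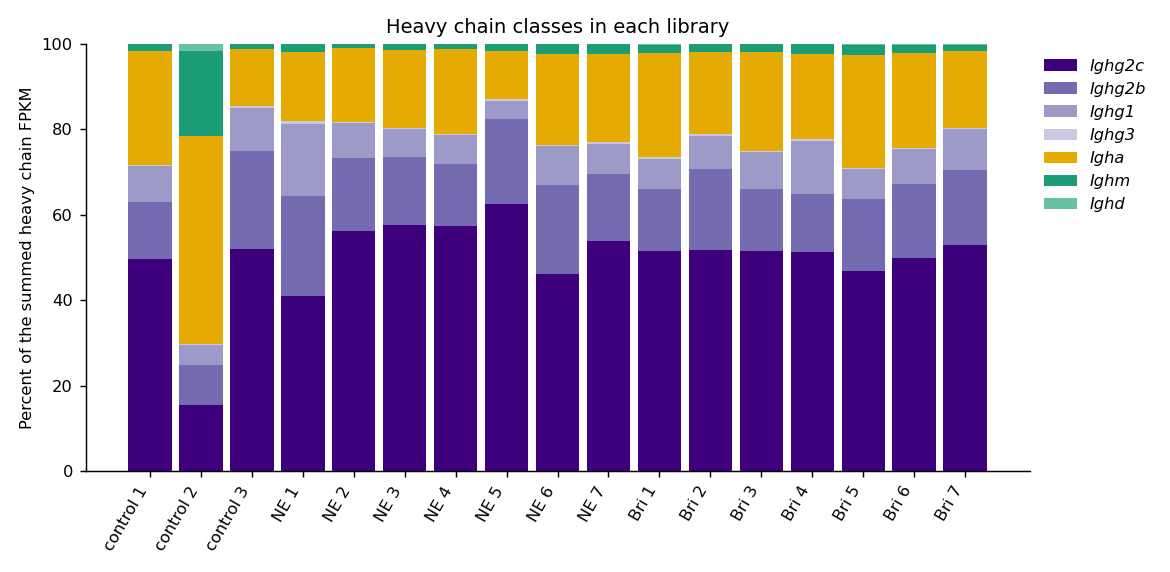
Stacked bars of the percent of summed heavy chain FPKM that each heavy chain gene made up in each of the 17 libraries. The γ genes (purple) hold 71.0% to 87.0% of every exposed library and 29.7% of control 2, where Igha and Ighm hold 48.6% and 19.96%.

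The comparison of NE with control asked which transcripts differed after noise. All 10 members passed the filter of 1 FPKM in 3 of the libraries compared. None was called by limma at an adjusted p under 0.05 with an at least 2-fold change. The rule called 5.76% of the 15950 genes tested, 43 of them higher in NE and 875 lower. Voom on recovered fragments called none as well, whereas a model with all 17 libraries called Ighg2b and Ighg2c (limma adjusted p = 0.0338 and 0.0365). At an unadjusted p under 0.05, 2 members were higher in NE by limma (4 by voom), against 10.6% of all genes tested, and none was lower, against 22.3%. The members' fold changes were nonetheless large and mostly of 1 sign, with 9 of 10 above 0 and a median of 1.12 on the log2 scale, against −0.04 over all genes. Fold changes here are on the scale of log2(FPKM + 1), which understates changes of low genes.

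Ighg2c had the largest estimate, with a mean of 3912 ± 1628 (SD, n = 7) FPKM in NE and 1655 ± 1341 (SD, n = 3) in control. Its log2 fold change was 2.07 (SE 0.870, limma adjusted p = 0.128, and 0.0365 to 0.510 over the alternatives). Ighg2b followed with 1299 ± 473 against 597 ± 504 FPKM and a log2 fold change of 1.77 (SE 0.722, limma adjusted p = 0.119, and 0.0338 to 0.495 over the alternatives). Igkc had a log2 fold change of 1.37 (SE 0.686, limma adjusted p = 0.191) and Igha of 0.88 (SE 0.405, limma adjusted p = 0.159). Ighd, the member below 0, had a log2 fold change of −0.28 (SE 0.379, limma adjusted p = 0.632). With array weights Ighd was above 0, at 0.75 (limma adjusted p = 0.0108). Ighm and Igha also passed the adjusted threshold in that setting (limma adjusted p = 0.00249 and 0.0220). All 3 stayed short of a call, and 2288 of 15950 genes had an adjusted p under 0.05 in the higher direction there. By exact two-sided permutation of the single genes, the smallest p among the members was 0.0833 (Ighg2b), where 7 against 3 libraries allow 0.017 at best.

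These estimates rested on control 2. Without it, the log2 fold changes were 0.57 for Ighg2c, 0.54 for Ighg2b, 0.43 for Igkc and 0.40 for Igha, and 0.33 for Ighd, whose sign turned. The median of the members was 0.37, and all 10 were above 0. Leaving out another control let 1 member pass in each case, Igha at 1.38 without control 1 (limma adjusted p = 0.0274) and Ighg2b at 2.56 without control 3 (limma adjusted p = 0.0493). Without control 3, the lowest library for Ighd and Ighm, their estimates were −0.84 and −0.06. In control 2 the neutrophil genes summed to 9686 FPKM against 45695 and 43272 in controls 3 and 1, and the plasma cell genes to 231 against 652 and 814. Other lists were at their highest of the 17 libraries in control 2, with erythroid genes at 5386 FPKM against 830 and 1434 in controls 3 and 1, osteoblast genes at 1056 against 421 and 523, and cochlear epithelium and stria genes at 1339 against 757 and 539. The part of these differences in the members' values was not tested. In bulk tissue, fewer cells of a type and less RNA per cell cannot be told apart.

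**Figure D3:**
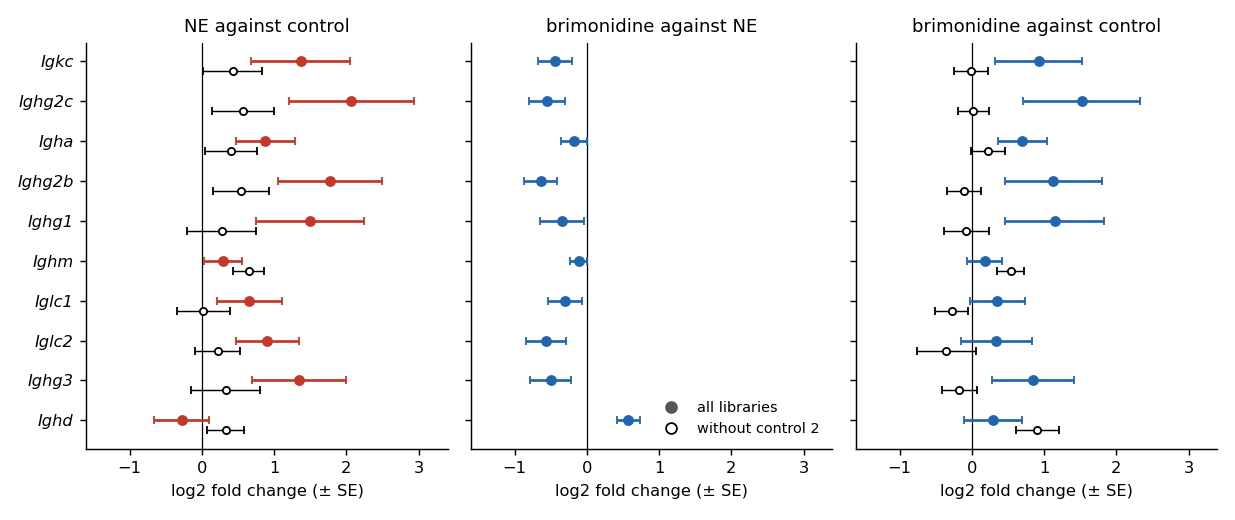
Log2 fold change of each member (limma on log2(FPKM + 1), bars ± SE) in the 3 comparisons, with all libraries (filled) and without control 2 (open). In NE against control the estimate for Ighg2c moved from 2.07 to 0.57, and in brimonidine against NE 9 members lie below 0 and Ighd lies at 0.58.

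The comparison of brimonidine with NE asked what the drug changed in exposed ears and did not involve the controls. None of the 10 members was called, where the rule called 0% of the 15707 genes tested, and voom also called none. At an unadjusted p under 0.05, 1 member was higher in brimonidine by limma and by voom, against 3.3% of all genes by limma, and 2 were lower by limma (4 by voom), against 2.46%. Only the estimate of Ighd lay above 0, and no estimate passed correction. The γ, α, μ and light chain members all lay below 0. Of these, the estimates of Ighm (−0.11, SE 0.121) and Igha (−0.18, SE 0.175) were about as large as their SE. The median over the 10 members was −0.40 on the log2 scale, against 0.01 over all genes.

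Ighd averaged 5.85 ± 1.54 FPKM (SD, n = 7) in brimonidine and 3.54 ± 0.784 (SD, n = 7) in NE, with a log2 fold change of 0.58 (SE 0.157, unadjusted p = 0.00228, limma adjusted p = 0.521). The exact two-sided permutation p was 0.00641, and 6 of 7 brimonidine libraries exceeded all NE libraries. The exception was brimonidine 4, at 2.98 FPKM from 101 fragments. In the same contrast Ighm averaged 95.3 ± 15.0 against 104 ± 20.9 FPKM, with a log2 fold change of −0.11 (SE 0.121, limma adjusted p = 0.937). The adjusted p of Ighd ran from 0.152, without brimonidine 4, to 1.00 over the alternatives, and the difference did not pass correction in any of them.

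Ighg2b averaged 795 ± 161 FPKM in brimonidine and 1299 ± 473 in NE, with a log2 fold change of −0.64 (SE 0.224, limma adjusted p = 0.710, exact permutation p = 0.0245). Ighg2c averaged 2507 ± 490 against 3912 ± 1628, with a log2 fold change of −0.55 (SE 0.249, limma adjusted p = 0.857, exact permutation p = 0.0618). Igkc averaged 7264 ± 1373 against 10329 ± 3821, with a log2 fold change of −0.44 (SE 0.233, limma adjusted p = 0.870). All 7 brimonidine libraries lay below the NE mean for each of these 3 genes. For Igkc no brimonidine library lay outside the NE range. The NE libraries were more variable, with a coefficient of variation of 37.0% for Igkc against 18.9% in brimonidine.

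The comparison of brimonidine with control called no member either, where the rule called 5.73% of 15947 genes, 27 of them higher in brimonidine and 886 lower. No member reached an unadjusted p under 0.05 in either direction, against 13.6% of genes higher and 22% lower, and voom called none. With array weights, Ighd was called at a log2 fold change of 1.205 (limma adjusted p = 0.0028), where 112 of 15947 genes were called higher. Ighm, at 0.78 (limma adjusted p = 0.00181), and Igha (limma adjusted p = 0.00743) passed the adjusted threshold short of 2-fold. In that setting 2981 genes had an adjusted p under 0.05 in the higher direction. All 10 estimates were above 0, with a median of 0.77 on the log2 scale, from 0.18 (SE 0.247, limma adjusted p = 0.638) for Ighm to 1.52 (SE 0.811, limma adjusted p = 0.202) for Ighg2c. Without control 2 the median was −0.05 and 4 of 10 members were above 0. In that setting Igkc was at −0.02 and Ighg2c at 0.02, while Ighd was at 0.90 and Ighm at 0.53. Without control 1, Igha passed at 1.204 (limma adjusted p = 0.00907). NE and brimonidine shared these control libraries, so the 2 comparisons with control are not independent of each other.

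Ratios between members within a library do not depend on how libraries were scaled. The ratio of Ighd to Ighm was 0.0634 ± 0.020 (SD, n = 7) in brimonidine and 0.0348 ± 0.00915 (SD, n = 7) in NE. On the log2 scale, that is between geometric means, this was 1.76-fold higher, with an exact two-sided permutation p of 0.0122 and 0.220 after Benjamini-Hochberg adjustment over the 18 ratio tests. The values by library were 0.0249 in brimonidine 4 and 0.0622 to 0.0928 in the other 6, against 0.0245 to 0.0475 in NE. Without brimonidine 4 the groups did not overlap, the difference was 2.04-fold and the adjusted exact p was 0.0210. Brimonidine 4 was singled out after its value was seen, and leaving out any of the other 13 libraries gave an adjusted exact p of 0.210 to 0.429. With group medians in place of means the exact p was 0.0816 (adjusted 0.480). In controls 1 to 3 the ratio was 0.0497, 0.0841 and 0.0294, which spans most of both exposed groups.

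The ratio of the γ genes to Ighm was 57.3 ± 23.5 in NE, 39.8 ± 8.31 in brimonidine and 43.2, 1.49 and 77.2 in the controls. Between geometric means, brimonidine was 0.731 times NE, with an exact permutation p of 0.0909 (adjusted 0.409). Within the γ class, the ratio of Ighg2c to Ighg1 ran from 2.43 in NE 1 to 14.7 in NE 5, with means of 7.68 ± 3.81 in NE, 6.01 ± 1.01 in brimonidine and 4.77 ± 1.44 in control, and no exact p under 0.183 in any comparison. The ratio of κ to λ was 91.6 ± 19.8 in NE, 88.4 ± 15.9 in brimonidine and 61.6 ± 17.6 in control. Between geometric means, the exposed groups were 1.50-fold (NE) and 1.46-fold (brimonidine) above control, with exact permutation p of 0.0833 and 0.0667 (adjusted 0.409 for each), and without control 2 they were 1.25-fold and 1.22-fold above. The ratio of light to heavy members was the steadiest of the ratios, at 1.53 ± 0.0154 in control, 1.45 ± 0.135 in NE and 1.49 ± 0.0772 in brimonidine, and control 2, with its low immunoglobulin level, had 1.51. No ratio passed the adjusted threshold with all libraries included.

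**Figure D4:**
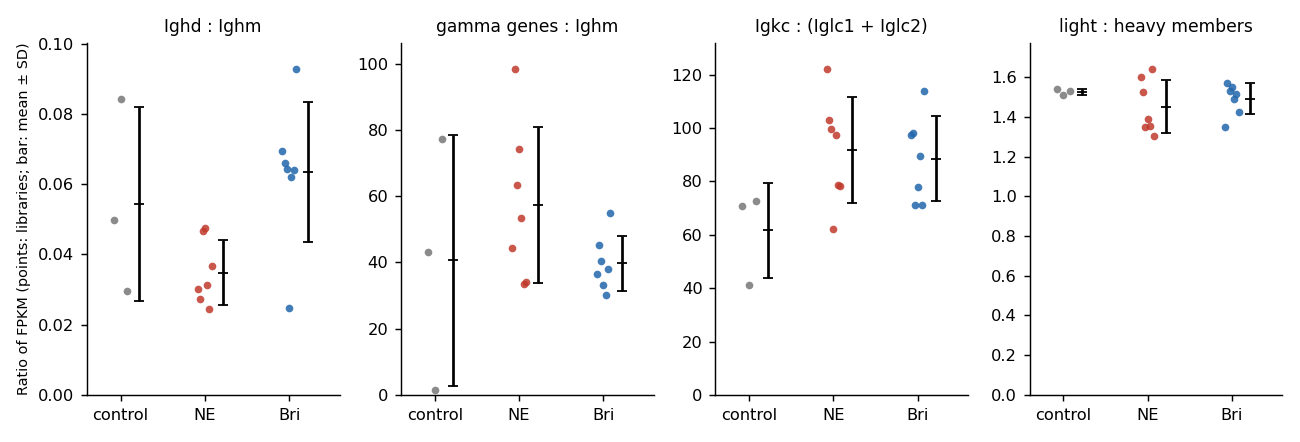
Ratios of FPKM within each library (points) by group, with the mean ± SD as bars, for Ighd to Ighm, the γ genes to Ighm, Igkc to the λ genes, and light to heavy members. For Ighd to Ighm 6 brimonidine libraries (0.0622 to 0.0928) lie above all NE libraries and brimonidine 4 lies at 0.0249.

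Members were then set beside lists of genes for the cells that make antibodies. For each of the 10 members, Pearson's r and Spearman's rho were computed over the 17 libraries with the mean log2(FPKM + 1) of 10 plasma cell genes and of 11 mature B cell genes, and permutation p were adjusted over these 20 relations. Igkc had the highest r with the plasma cell list, at 0.96 (permutation p = 1e-05, the smallest that 100000 resamples can give, adjusted 6.67e-05), with rho at 0.91 (permutation p = 1e-05). Without the 2 libraries farthest from the list's median, control 2 and NE 2, r was 0.87, and over the 14 exposed libraries centred on their group means it was 0.92. Ighg2c and Ighg2b followed at 0.92 each, with 0.84 and 0.77 without the 2 libraries. For Igha r was 0.86 over all libraries and 0.51 without the 2 libraries, when it no longer passed (adjusted permutation p = 0.133). Centred over the exposed libraries it was 0.70 (adjusted permutation p = 0.0255), with 0.78 within NE and 0.09 within brimonidine.

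For Ighm and Ighd r with the plasma cell genes was −0.03 (permutation p = 0.910) and −0.42 (permutation p = 0.0934). Both turned positive without control 2 and NE 2, at 0.54 (permutation p = 0.0353, adjusted 0.101) and 0.21 (permutation p = 0.448). With the mature B cell list r was 0.66 for Ighm (permutation p = 0.0081, adjusted 0.0162) and 0.81 for Ighd (permutation p = 0.00016, adjusted 0.000567), with rho of 0.46 and 0.69. Control 2 had the highest summed mature B cell level, 56.2 FPKM, and control 3 the lowest, 9.28, against 18.3 in control 1 and 11.5 to 27.7 in the exposed libraries. Without these 2 libraries r was 0.26 for Ighm and 0.55 for Ighd, so the relation of Ighm rested on them, and that of Ighd no longer passed (adjusted p = 0.101). Over the exposed libraries centred on group means r was 0.31 and 0.57.

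**Figure D5:**
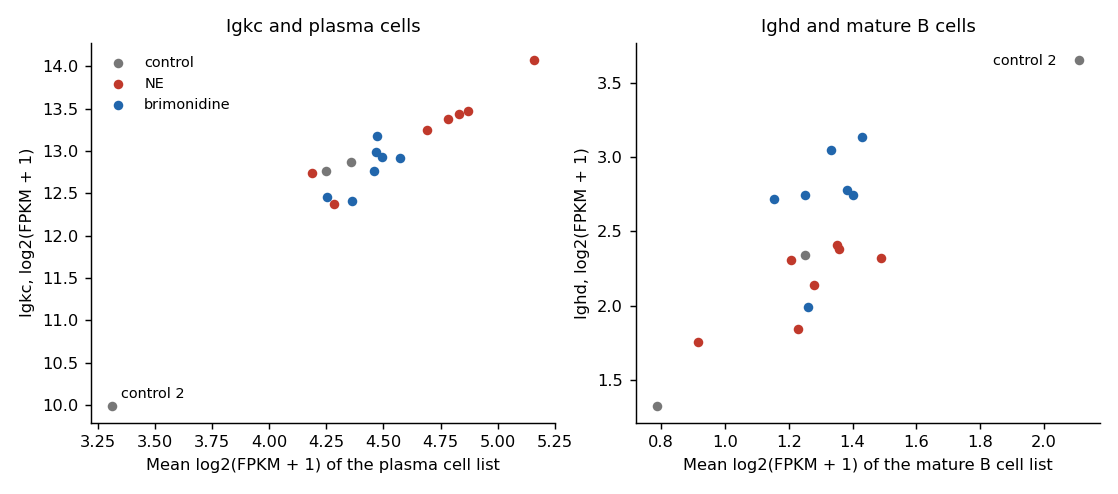
Log2(FPKM + 1) of Igkc against the mean of the plasma cell list (left) and of Ighd against the mean of the mature B cell list (right), 1 point per library. Control 2 is the lowest point on the left and the highest on the right, and 6 of 7 brimonidine libraries lie higher for Ighd than all NE libraries.

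Within the mature B cell list, no gene was called in any comparison. In brimonidine against NE, 4 of the 8 genes tested lay above 0 and 4 below, with a median log2 fold change of 0.016. The genes of resting follicular B cells were low. Fcer2a, the low-affinity IgE receptor CD23 of IgM and IgD bearing B cells, ranged from 0.0615 to 0.627 FPKM in NE and from 0.398 to 0.934 in brimonidine. Cr2, complement receptor CD21, ranged from 0.0625 to 0.197 and from 0.169 to 0.371. Both were under the filter and received no test across genes. Cd22, an inhibitory B cell receptor partner, had a log2 fold change of 0.22 in brimonidine against NE (SE 0.0942, limma adjusted p = 0.857).

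In the plasma cell list, 1 of 10 genes was called higher in NE than in control and none lower. Of the 15950 genes tested, 43 were called higher and 875 lower, 5.76% in either direction. The median log2 fold change of the list was 0.59 (0.42 without control 2, when none was called). The called gene was Irf4, a transcription factor required for plasma cells, with a log2 fold change of 1.05 (SE 0.281, limma adjusted p = 0.0314). Without control 2 its log2 fold change was 0.97 (SE 0.332, limma adjusted p = 0.130). Jchain, which links IgA and IgM polymers, had a log2 fold change of 1.10 (SE 0.452, limma adjusted p = 0.122) and Xbp1, the transcription factor of the secretory programme, of 0.57 (SE 0.240, limma adjusted p = 0.131). Without control 2 these were 0.42 (limma adjusted p = 0.534) and 0.18 (limma adjusted p = 0.559). In brimonidine against NE none of the 10 was called, all 10 lay below 0, and the median was −0.25. Among them Sdc1, the plasma cell surface proteoglycan syndecan-1, had a log2 fold change of −0.36 (SE 0.112, limma adjusted p = 0.633). A list of B cell precursor genes moved the same way in this comparison, with all 6 genes tested below 0, a median of −0.24 and none called. Jchain ranged from 375 to 969 FPKM in NE and from 408 to 560 in brimonidine, and measured 534, 110 and 372 in controls 1 to 3.

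The genes whose pattern was most like that of a member were taken as the 5 with the highest Pearson's r over the 17 libraries among 16415 genes, immunoglobulin genes left out. For Igkc these were Jchain (0.97), Xbp1 (0.97), Slpi (0.96), Mzb1 (0.95) and Edem2 (0.94), with r of 0.91 to 0.97 after centring on group means. Of the 20 genes most like Igkc, 11 were immunoglobulin genes. For Igha the 5 were Jchain (0.91), Ly6i (0.89), Bend3 (0.88), Txndc5 (0.87) and Map4k1 (0.87), with 4 immunoglobulin genes among the top 20. For Ighm they were Pck2 (0.80), Polm (0.80), Ube2l6 (0.80), Otud5 (0.79) and Ptprcap (0.79), and none of the 100 genes most like Ighm was an immunoglobulin gene. These relations are across libraries, were chosen from many genes for their size, and are given as a description.

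The remaining constant and surrogate genes were scarce. Ighe (IgE) averaged 0.601 ± 0.275 FPKM (SD, n = 3) in control, 1.18 ± 0.640 (n = 7) in NE and 0.859 ± 0.179 (n = 7) in brimonidine. Iglc3 averaged 2.32 ± 0.496, 5.16 ± 2.37 and 4.12 ± 1.74 FPKM in the same order. Igll1 and Vpreb1, which form the surrogate light chain of B cell precursors, averaged 1.56 ± 1.36 and 1.36 ± 1.22 FPKM in control, 1.13 ± 0.596 and 1.23 ± 0.497 in NE, and 0.839 ± 0.319 and 0.780 ± 0.308 in brimonidine. Of the 6 genes found of 7 listed, 4 were tested in NE against control and none was called.

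Of the 6 B cell receptor partners, which carry the signal of surface immunoglobulin, none was called at an at least 2-fold change in any comparison. Without a minimum fold, Plcg2 (phospholipase Cγ2) and the kinase Syk had an adjusted p under 0.05 in NE against control, as did 2.12% of all genes tested in the higher direction. Their log2 fold changes were 0.67 (SE 0.192, limma adjusted p = 0.0432) and 0.42 (SE 0.126, limma adjusted p = 0.0472), and without control 2 they were 0.35 and 0.23 (limma adjusted p = 0.0972 and 0.141). In brimonidine against control Plcg2, Syk and the kinase Btk passed in this way, against 3.47% of all genes higher. Their log2 fold changes were 0.69, 0.46 and 0.48 (limma adjusted p = 0.0403, 0.0305 and 0.0452), and without control 2 they were 0.37, 0.27 and 0.27, and none passed. All 3 genes are also expressed in myeloid cells. Cd79a and Cd79b, the signalling subunits particular to B cells, averaged 24.2 ± 13.7 and 14.8 ± 7.92 FPKM in control, 27.3 ± 7.87 and 17.7 ± 4.43 in NE, and 21.6 ± 4.06 and 14.5 ± 2.53 in brimonidine.

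None of the 7 class switching genes was called in any comparison. Without a minimum fold, Rif1, which protects broken DNA ends from resection, had a log2 fold change of −0.54 in NE against control (SE 0.160, limma adjusted p = 0.0479), a threshold that 12% of all genes passed in the lower direction, and −0.38 without control 2 (limma adjusted p = 0.220). None of the 9 ligands of switching and antibody secretion was called, and 5 of them were tested. Without a minimum fold, Il4, which directs switching to IgG1 and IgE, had a log2 fold change of −0.77 in brimonidine against control (SE 0.233, limma adjusted p = 0.0488), where 12.3% of all genes passed in the lower direction, and −0.37 without control 2 (limma adjusted p = 0.0996). Tgfb1, which directs switching to IgA, averaged 35.3 ± 6.12, 42.8 ± 2.07 and 44.1 ± 4.48 FPKM in control, NE and brimonidine. Ifng, which directs switching to IgG2c, averaged 0.0960 ± 0.166, 0.209 ± 0.172 and 0.130 ± 0.0682 FPKM. Cxcl12, the chemokine that holds plasma cells in bone marrow, averaged 55.3 ± 2.56, 56.8 ± 6.69 and 66.9 ± 7.65 FPKM, with a log2 fold change of 0.23 in brimonidine against NE (SE 0.0831, limma adjusted p = 0.733).

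Among 11 Fc receptors and antibody transporters none was called with all libraries. Fcgr1, the high-affinity IgG receptor of phagocytes, averaged 6.58 ± 1.64 FPKM in control, 10.8 ± 1.34 in NE and 11.4 ± 0.863 in brimonidine. Its log2 fold change was 0.65 in NE against control (SE 0.144, limma adjusted p = 0.0134) and 0.73 in brimonidine against control (SE 0.124, limma adjusted p = 0.00318), short of 2-fold in each. Without control 2 these were 0.46 (limma adjusted p = 0.0533) and 0.55 (limma adjusted p = 0.00286). Fcamr, a receptor for IgA and IgM, averaged 2.35 ± 1.55, 1.21 ± 0.394 and 0.817 ± 0.359 FPKM. In brimonidine against control its log2 fold change was −0.81 (SE 0.246, limma adjusted p = 0.0492), at a threshold that 12.3% of all genes passed in the lower direction, and without control 2 it was −1.03 (limma adjusted p = 0.0339), past the threshold for a call. The controls measured 1.59, 1.31 and 4.13 FPKM, so control 3 carried much of this difference. Pigr, which carries IgA and IgM polymers across epithelia, averaged 36.4 ± 36.0, 30.8 ± 8.07 and 23.4 ± 7.71 FPKM, and Fcgrt, the neonatal Fc receptor that protects IgG, averaged 34.8 ± 10.7, 31.7 ± 2.76 and 32.2 ± 2.52.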

How the data were processed

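Per the labels, libraries were made from total RNA extracted with TRIzol using a stranded mRNA kit. The authors deposited 1 table of FPKM for 35285 genes. The submitters' processing notes name Trimmomatic, HISAT2, Cufflinks and HTSeq with the mm10 build, and the annotation is not given in the sources used here. Positions were identical to GENCODE M21 for 33052 of 35207 genes and for all 10 members. Fragments were recovered from the steps of the FPKM values. No counts were given, so limma 3.58.1 (R 4.3.3, eBayes with trend) was run on log2(FPKM + 1) over the 2 groups compared, with genes at 1 FPKM or more in at least 3 libraries. Benjamini-Hochberg adjustment covered all genes tested. Genes were called at an adjusted p below 0.05 where the log2 change was 1 or more in size, as in the study. The fit was also run on simulated data that held no library like control 2, so that run does not bear on the comparisons with control. Single genes and ratios were compared by exact permutation (scipy 1.17.1), for which the smallest p is 0.017 for 7 against 3 and 0.00058 for 7 against 7. By the methods each library is 1 mouse. Tent5c was read as Fam46c, its older symbol. The named genes were all members, the list genes and the 5 genes most like Ighm, Igha and Igkc. Members and lists alike were chosen with earlier results of these data known.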

Additional observations from a re-analysis of the deposited data

Results flagged for a closer look

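In the groups of 7 libraries, the highest and lowest library were compared with the nearest other library, as a share of the group's range, for 10 members and 6 ratios in 2 groups, 32 tests in all. Chance marks about 1 group in 20, and 4 values exceeded the limit of 0.568. Brimonidine 4 was far below the other brimonidine libraries for Ighd (gap 0.638 of the range, at 2.98 FPKM against 5.59 to 7.79), for the ratio of Ighd to Ighm (gap 0.695) and for the ratio of Igha to Ighm (gap 0.698, at 8.51 against 11.1 to 12.4). The same library had the highest Ighm of its group, 119.6 FPKM, so the ratios share their denominator. Brimonidine 3 was far above the others for Igha (gap 0.798, at 1406 FPKM against 958 to 1036). It also had the highest Igkc, Ighg2c, Iglc1 and Iglc2 of its group.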

How the results depend on the processing

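The 3 control libraries limit the comparisons with control, and control 2 moves most of their values. Counting error bears most on Ighd, with 46 to 335 fragments per library. Of 610 alternative fold changes of members, 587 kept direction and side of the threshold, 6 newly passed and 17 changed sign. Of 222 ratios, 206 did so, 1 newly passed and 15 changed sign. Members called rose from 0 to 2 (NE against control) with all 17 libraries in 1 model and to 1 (brimonidine against control, Ighd) with array weights. At an unadjusted p with no minimum fold, 2 members passed in NE against control and 3 in brimonidine against NE. Leaving out 1 library gave 0 to 1, 0 to 0 and 0 to 1 calls in NE against control, brimonidine against NE and brimonidine against control. Replicate numbers did not pair the samples (correlations of deviations from -0.221 to 0.0832), and with the replicate block 0 members were called in each comparison.

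Signs changed as follows on the log2 scale, and the cause was not tested. With array weights, brimonidine against control was -0.11 for Ighg1, -0.39 for Ighg2b, -0.011 for Ighg3, -0.27 for Iglc1 and -0.29 for Iglc2, and NE against control was 0.75 for Ighd. With quantile normalization, Ighm was at -0.052 in brimonidine against control. Leaving out 1 library in brimonidine against control gave -0.26 to 0.90 for Ighd, -0.075 to 1.81 for Ighg1, -0.10 to 1.91 for Ighg2b, -0.17 to 1.43 for Ighg3, -0.17 to 0.53 for Ighm, -0.017 to 1.42 for Igkc, -0.28 to 0.68 for Iglc1 and -0.35 to 0.77 for Iglc2. In NE against control it gave -0.84 to 0.33 for Ighd and -0.059 to 0.65 for Ighm. With medians, the Igha to Ighm ratio was at -0.38 (NE against control), 0.27 (brimonidine against NE) and -0.11 (brimonidine against control), and the γ to Ighm ratio at -0.18 in brimonidine against control. Leaving out 1 library, the Igha to Ighm ratio ran from -0.25 to 1.10, -0.19 to 0.075 and -0.32 to 1.04 in these comparisons. The γ to Ighm ratio ran from -0.11 to 2.74 in NE against control and -0.56 to 2.29 in brimonidine against control, the Ighd to Ighm ratio from -0.11 to 0.64 in brimonidine against control, and the κ to λ ratio from -0.13 to 0.033 in brimonidine against NE. The Ighd to Ighm ratio in brimonidine against NE kept its sign, at 0.71 to 1.03, and newly passed without brimonidine 4.

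Of 60 alternative correlations, 23 kept direction and side of the threshold, 13 no longer passed and 24 changed sign. With the plasma cell list, rho was 0.20 for Ighm, 0.55 for Iglc1 and 0.56 for Iglc2. Without the 2 farthest libraries r was 0.54 for Ighm, 0.21 for Ighd, 0.56 for Ighg1, 0.51 for Igha, 0.46 for Iglc1 and 0.40 for Iglc2. Centred over the exposed libraries it was 0.24 for Ighm, 0.13 for Ighd, 0.59 for Iglc1 and 0.52 for Iglc2. With the mature B cell list, rho was 0.46 for Ighm, 0.13 for Ighg3, 0.015 for Ighg1, 0.044 for Ighg2b, 0.10 for Ighg2c and 0.11 for Igkc. Without the 2 farthest libraries r was 0.26 for Ighm, 0.55 for Ighd, 0.39 for Ighg3, 0.33 for Ighg1, 0.31 for Ighg2b, 0.27 for Ighg2c, 0.038 for Igha and 0.25 for Igkc. Centred over the exposed libraries it was 0.31 for Ighm, 0.57 for Ighd, 0.53 for Ighg3, 0.41 for Ighg1, 0.54 for Ighg2b, 0.44 for Ighg2c, 0.11 for Igha, 0.40 for Igkc, 0.047 for Iglc1 and 0.088 for Iglc2. Shares and the order of levels per shortest transcript or in fragments were alternatives chosen after seeing the data.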
